A study of Mus musculus with 8 samples.

Results

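The neutrophil granule genes Elane, Mpo, Prtn3, Ctsg, Ltf, Ngp, Camp, S100a8 and S100a9 were followed in cultures of mouse bone marrow macrophages. They were taken by gene symbol from the deposited table of CPM values (a gene's reads scaled by the reads counted in all genes of the library), and all 9 were found among its 24421 rows. The study sequenced poly-A RNA from wild type cells and from cells of Rbpj flox/flox mice crossed with LysMcre mice, called knockout below, either untreated (day 0) or treated with 40 ng/ml TNF for a further 2 days. Each of the 4 groups (wild type day 0, wild type TNF, knockout day 0, knockout TNF) had 2 libraries, numbered replicate 1 and replicate 2 in the labels, and the series describes 2 independent experiments. Rbpj encodes RBP-J, through which Notch receptors act on their target genes. The LysM (Lyz2) promoter drives Cre in the myeloid lineage, including granulocytes and their precursors, so the deletion was not restricted to macrophages. Every day 2 library had TNF, and the effects of TNF and of the added culture time cannot be told apart. No label says that the libraries came from separate animals, so the p-values measure only the spread between these samples, which may be technical. The labels do not say whether the wild type mice carried floxed or Cre alleles.

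Granulocyte precursors in the marrow load their granules in waves as they mature. Primary (azurophil) granules are filled at the promyelocyte stage with myeloperoxidase (Mpo) and the serine proteases neutrophil elastase (Elane), proteinase 3 (Prtn3) and cathepsin G (Ctsg), whose transcripts are lost again as the cell matures. Secondary (specific) granules follow at the myelocyte stage with lactoferrin (Ltf), neutrophilic granule protein (Ngp) and the cathelicidin precursor (Camp), while S100a8 and S100a9 encode the subunits of calprotectin, an abundant cytosolic calcium-binding protein of neutrophils and monocytes. Macrophages grown from marrow are not known for high levels of granule transcripts, and inflammatory stimuli can induce some of them, such as S100a8, in macrophages.

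The genes lie in 3 stretches of the genome and at 2 single loci (positions on GRCm38 from GENCODE M21). Prtn3 (chr10:79874476-79883174, plus strand) and Elane (chr10:79886247-79888215, plus strand) are neighbours, 3072 bases apart. On chromosome 9, Camp (chr9:109847379-109849617, minus strand), Ngp (chr9:110419747-110423012, plus strand) and Ltf (chr9:111019271-111042767, plus strand) follow one another at 570129 and 596258 bases. S100a8 (chr3:90668978-90670035, plus strand) and S100a9 (chr3:90692632-90695721, minus strand) lie 22.6 kb apart on opposite strands. Mpo (chr11:87793581-87804413, plus strand) and Ctsg (chr14:56099881-56102574, minus strand) stand alone. Whether reads were counted by strand was not given in the sources used here, so reads of Mpo and of the antisense gene Gm11505 inside it, and of Prtn3 and Plppr3 at its start, cannot be told apart.

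For 6 of the genes the 250 bases before the RefSeq transcription start (GRCm38.p6) are shown 5′ to 3′ on the gene's strand. They are the neighbours Elane and Prtn3, the secondary granule genes Ngp and Camp, whose TNF differences had different sizes, and S100a8 and S100a9, whose read ratio differed between day 0 and TNF. Capitals mark matches, on either strand, to the letters of 5 motifs: TTGCNNAA for C/EBP factors, GAGGAA for PU.1, TGTGGT for RUNX factors, TAACNG for MYB and GTGGGAA for RBP-J. The windows are Elane chr10:79886062-79886311, plus strand; Prtn3 chr10:79879417-79879666, plus strand; Ngp chr9:110419558-110419807, plus strand; Camp chr9:109849457-109849706, minus strand; S100a8 chr3:90668821-90669070, plus strand; and S100a9 chr3:90695722-90695971, minus strand.
Elane: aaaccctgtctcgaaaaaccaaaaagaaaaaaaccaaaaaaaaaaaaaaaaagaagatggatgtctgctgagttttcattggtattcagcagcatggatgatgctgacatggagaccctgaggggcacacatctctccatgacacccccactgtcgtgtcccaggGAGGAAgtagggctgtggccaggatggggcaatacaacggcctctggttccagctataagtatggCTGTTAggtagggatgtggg
Prtn3: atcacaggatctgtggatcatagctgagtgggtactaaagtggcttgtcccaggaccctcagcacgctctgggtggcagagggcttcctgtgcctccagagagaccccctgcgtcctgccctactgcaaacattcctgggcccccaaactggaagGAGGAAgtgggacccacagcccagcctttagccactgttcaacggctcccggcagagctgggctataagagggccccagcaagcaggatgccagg
Ngp: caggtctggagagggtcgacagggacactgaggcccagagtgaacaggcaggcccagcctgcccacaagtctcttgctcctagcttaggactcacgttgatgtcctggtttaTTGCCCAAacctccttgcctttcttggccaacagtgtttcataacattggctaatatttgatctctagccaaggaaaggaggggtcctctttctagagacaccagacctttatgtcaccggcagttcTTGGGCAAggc
Camp: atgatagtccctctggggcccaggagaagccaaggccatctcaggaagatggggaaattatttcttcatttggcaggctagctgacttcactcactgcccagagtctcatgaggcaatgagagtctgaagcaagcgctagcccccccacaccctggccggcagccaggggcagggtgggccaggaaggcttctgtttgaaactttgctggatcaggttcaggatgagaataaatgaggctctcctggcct
S100a8: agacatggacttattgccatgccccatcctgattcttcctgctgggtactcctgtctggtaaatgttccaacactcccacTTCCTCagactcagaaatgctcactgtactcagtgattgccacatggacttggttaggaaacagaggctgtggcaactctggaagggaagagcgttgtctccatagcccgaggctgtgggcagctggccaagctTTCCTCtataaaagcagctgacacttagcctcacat
S100a9: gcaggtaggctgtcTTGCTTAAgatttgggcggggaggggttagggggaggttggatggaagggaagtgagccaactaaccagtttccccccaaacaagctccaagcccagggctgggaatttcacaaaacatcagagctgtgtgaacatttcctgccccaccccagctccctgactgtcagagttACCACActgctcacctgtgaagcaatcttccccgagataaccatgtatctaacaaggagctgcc

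Of the 9 windows, 8 held at least 1 match, with 16 matches in all and none overlapping another. The PU.1 letters were in 6 windows (Elane, Mpo, Prtn3, Ctsg, Ltf and S100a8), against 23.3% of the 32817 windows of the same length before all RefSeq starts. Those of C/EBP were in 3 (Ltf, S100a9 and Ngp, which held 2 matches) against 9.57% of all windows. The RUNX letters were in 2 (Ctsg and S100a9) against 14.0%, and the MYB letters in 2 (Elane and Mpo) against 19.8%. The RBP-J letters were in none of the 9 and in 5.42% of all windows, and Camp held none of the 5 motifs. In Elane the PU.1 match lay 85 to 80 bases before the RefSeq start and in Prtn3 95 to 90 bases before it. The Prtn3 window lies inside the GENCODE span of the gene given above, so its RefSeq start is downstream of the GENCODE start. A match describes letters in the window and is not a bound site.

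Depth ranged from 9855859 reads in knockout TNF replicate 1 to 35653203 in wild type TNF replicate 1, and 14491 to 15773 genes had at least 1 read. Rbpj itself was at 215 and 216 CPM in the wild type at day 0, 226 and 178 with TNF, 38.9 and 31.8 in the knockout at day 0 and 30.03 and 21.4 with TNF, in the direction of the labels. Differences were tested with limma on log2(CPM + 0.5) for 12194 genes that reached 1 CPM in 2 or more libraries, with Benjamini-Hochberg adjustment over all of them and a threshold of adjusted p = 0.05. A ± after a log2 difference is its standard error from that fit, and the spread of a group is shown by its 2 CPM values. Because the libraries of each replicate number deviated together, a second limma fit, blocked by replicate number, is given wherever it changes a call. In bulk RNA, fewer cells of a type and less RNA per cell cannot be told apart.

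All 9 genes were measurable at day 0, and together they took 0.0147% to 0.102% of the reads of a day 0 library. After TNF, Elane fell in the wild type, and Elane, Mpo, Prtn3, Ltf and Ngp fell in the knockout. With the replicate block Elane, Mpo, Prtn3, Ctsg, Ltf, Ngp and S100a9 fell in both genotypes, and Camp also fell in the knockout. S100a8 passed in neither genotype by either fit. Between the genotypes no member passed at day 0, and after TNF Camp alone was lower in the knockout, with the block only.

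Counted by the test, 1 of 9 members was lower with TNF in the wild type without the block and 7 of 9 with it, where 0.369% and 4.71% of all genes tested were called lower. In the knockout the counts were 5 of 9 and 8 of 9, where 2.01% and 13.7% of all genes tested were called lower. DESeq2 without the block called 6 of 9 lower in the wild type and 7 of 9 in the knockout, where it called 2.26% and 5.72% of all genes tested lower. Both TNF libraries lay below both day 0 libraries for 6 of 9 members in the wild type and for 8 of 9 in the knockout, against 22.6% and 25.2% of all genes tested. The median log2 difference of the members was -2.76 in the wild type, where that of all genes was -0.12, and -3.36 in the knockout, where that of all genes was -0.10. These counts describe the list and do not test it. Elane, Mpo, Prtn3 and Ctsg entered the test through their day 0 libraries, since at most 1 of their 4 TNF libraries reached 1 CPM. Ltf, Ngp, Camp, S100a8 and S100a9 were at or above 1 CPM in at least 3 of the 4 TNF libraries.

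**Figure D1:**
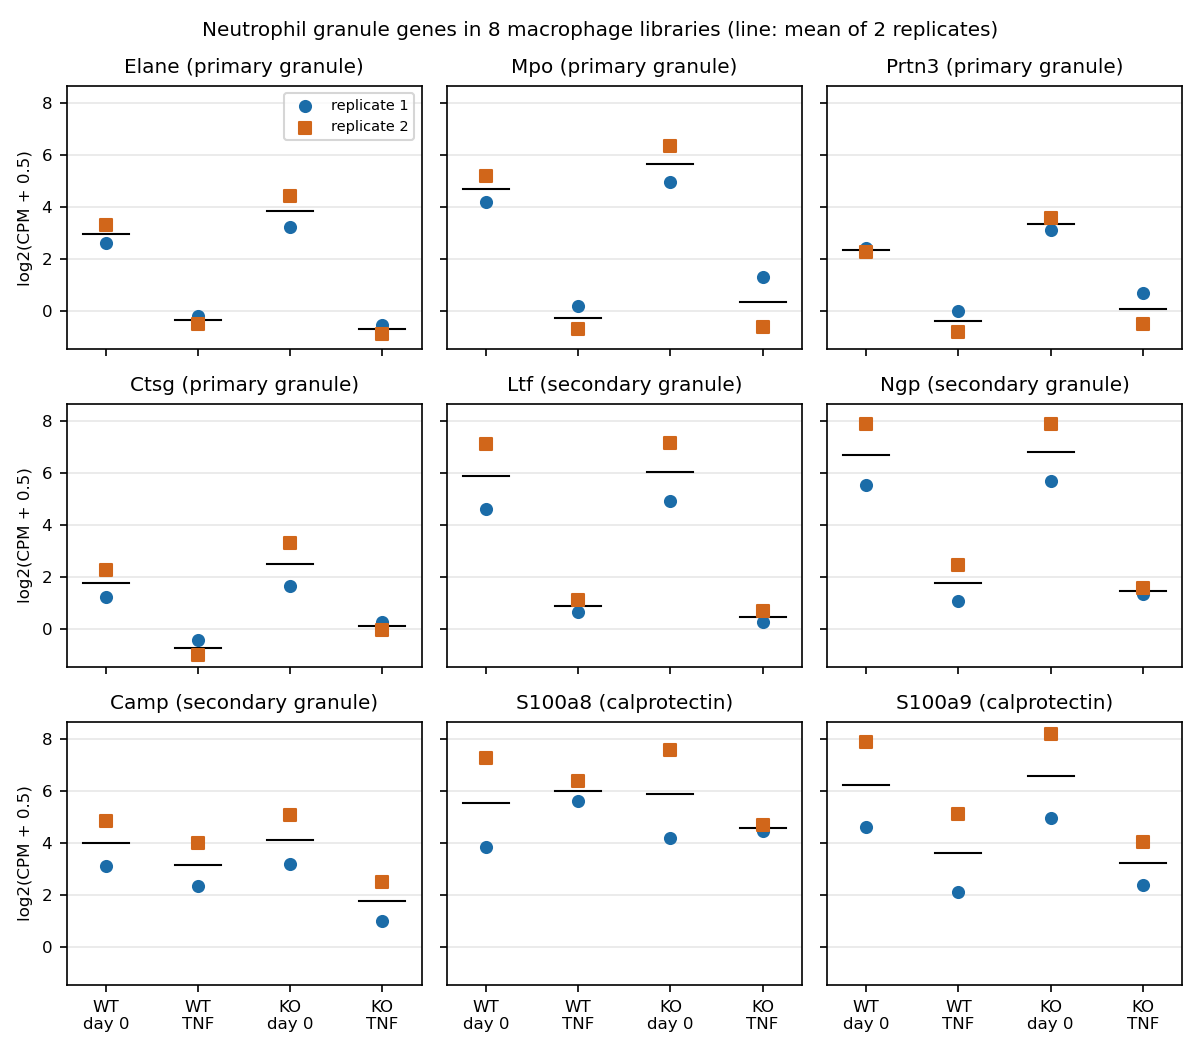
Level of each of the 9 genes as log2(CPM + 0.5), a log scale, in the 4 groups, with a circle for replicate 1, a square for replicate 2 and a line at the group mean. The TNF libraries lie below the day 0 libraries of their genotype for Elane, Mpo, Prtn3, Ctsg, Ltf and Ngp, whereas the day 0 and TNF libraries of S100a8 overlap in both genotypes.

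Among the primary granule genes, Elane stood at 5.76 and 9.53 CPM in the wild type at day 0 and at 0.393 and 0.212 CPM with TNF, and in the knockout at 9.04 and 21.1 CPM and at 0.203 and 0.0527 CPM. No TNF library came near a day 0 library, and the knockout TNF values rested on 2 reads and 1 read. The log2 difference was -3.31 ± 0.52 in the wild type (limma adjusted p = 0.0443) and -4.53 ± 0.52 in the knockout (limma adjusted p = 0.00898). From summed reads, the day 0 level was 23.8-fold the TNF level in the wild type (95% counting interval 15.0 to 39.9) and 138.5-fold in the knockout (47.2 to 673), intervals that cover counting error only. In the wild type no call of Elane remained without any single one of the 8 libraries (limma adjusted p from 0.0543 to 0.299). With the block the limma adjusted p was 0.00855, and the call was kept in 6 of 8 such fits and lost without wild type day 0 replicate 2 (0.0786) or wild type TNF replicate 2 (0.0791).

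Mpo encodes the enzyme that makes hypochlorous acid from hydrogen peroxide. It was at 18.0 and 36.8 CPM in the wild type at day 0 and 0.645 and 0.127 with TNF, and at 31.1 and 82.3 CPM in the knockout at day 0 and 2.03 and 0.158 with TNF. The groups at the 2 times did not overlap in either genotype. Its log2 difference was -4.95 ± 0.81 in the wild type (limma adjusted p = 0.0503, just outside the threshold, and 0.0148 with the block), and -5.31 ± 0.81 in the knockout (limma adjusted p = 0.0206).

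Prtn3 encodes the protease next to Elane. Its CPM were 4.99 and 4.38 in the wild type at day 0 and 0.505 and 0.0848 with TNF, and 8.18 and 11.7 in the knockout at day 0 and 1.12 and 0.211 with TNF. Here too every TNF library was below every day 0 library. The log2 difference was -2.76 ± 0.53 in the wild type (limma adjusted p = 0.0764, and 0.0142 with the block) and -3.26 ± 0.53 in the knockout (limma adjusted p = 0.0242).

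Ctsg encodes a chymotrypsin-like protease of the same granules. It stood at 1.86 and 4.38 CPM in the wild type at day 0, 0.252 and 0 with TNF, 2.64 and 9.55 in the knockout at day 0 and 0.710 and 0.475 with TNF. The 0 in wild type TNF replicate 2 allows a level of up to 0.127 CPM, the value of 3 reads in that library. The log2 difference was -2.47 ± 0.67 in the wild type (limma adjusted p = 0.175, and 0.0480 with the block) and -2.37 ± 0.67 in the knockout (limma adjusted p = 0.103, and 0.0294 with the block). With the block in edgeR, which was run on the reads recovered from the CPM, Ctsg passed in neither genotype (adjusted p = 0.0695 and 0.0685), where 3.76% and 12.1% of all genes tested were called lower by that fit.

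Of the secondary granule genes, Ltf, whose product binds iron, and Ngp, a cathelicidin-related granule protein, were among the genes with the most negative differences in the whole table. In the wild type Ltf, Mpo and Ngp held ranks 5, 6 and 7 from the bottom of 12194 genes by log2 difference, and in the knockout Ltf, Ngp and Mpo held ranks 5, 7 and 8. Ltf was at 24.4 and 139.6 CPM in the wild type at day 0 and 1.09 and 1.70 with TNF, and at 29.7 and 141 in the knockout at day 0 and 0.710 and 1.11 with TNF. Its log2 difference was -4.98 ± 0.98 in the wild type (limma adjusted p = 0.0799, and 0.00542 with the block) and -5.55 ± 0.98 in the knockout (limma adjusted p = 0.0302). The day 0 replicates were further apart than the TNF replicates, and yet the lower of them stood far above both TNF libraries in each genotype.

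Ngp was at 45.6 and 233 CPM in the wild type at day 0 and 1.63 and 5.004 with TNF, and at 52.0 and 234 in the knockout at day 0 and 2.03 and 2.48 with TNF. The pattern was that of Ltf, with a wide gap between the replicates at day 0 and no overlap between the times. The log2 difference was -4.92 ± 0.99 in the wild type (limma adjusted p = 0.0858, and 0.00364 with the block) and -5.34 ± 0.99 in the knockout (limma adjusted p = 0.0341). In the wild type Ngp was the member that passed with the block whichever of the 8 libraries was left out, and in the knockout Elane, Mpo, Prtn3, Ltf, Ngp, Camp and S100a9 did so.

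Camp, the cathelicidin precursor, had the smallest TNF differences of the secondary granule genes. It was at 8.20 and 28.5 CPM in the wild type at day 0 and 4.57 and 15.4 with TNF, and at 8.54 and 33.1 in the knockout at day 0 and 1.52 and 5.12 with TNF. In the wild type the groups overlapped, because replicate 2 with TNF was above replicate 1 at day 0, whereas in the knockout both TNF libraries were below both day 0 libraries. Within replicates the wild type differences were -0.78 and -0.87 on the log2 scale and the knockout differences -2.16 and -2.58. The log2 difference was -0.82 ± 0.98 in the wild type (limma adjusted p = 0.920, and 0.0574 with the block) and -2.37 ± 0.98 in the knockout (limma adjusted p = 0.250, and 0.00139 with the block). With edgeR and the block Camp passed in the wild type as well (adjusted p = 0.0452).

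The calprotectin genes had the widest spread between replicates of the 9 at day 0, whereas with TNF S100a8 was closer between replicates than Camp in both genotypes. S100a9 was at 24.1 and 233 CPM in the wild type at day 0 and 3.84 and 34.3 with TNF, and at 30.6 and 294 in the knockout at day 0 and 4.77 and 15.98 with TNF. Wild type TNF replicate 2 was above day 0 replicate 1, so these groups overlapped, while the knockout groups did not. Its log2 difference was -2.62 ± 1.59 in the wild type (limma adjusted p = 0.644, and 0.0129 with the block) and -3.36 ± 1.59 in the knockout (limma adjusted p = 0.324, and 0.00285 with the block).

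S100a8 was at 13.8 and 151 CPM in the wild type at day 0 and 48.2 and 82.1 with TNF, and at 17.8 and 188 in the knockout at day 0 and 21.4 and 25.1 with TNF. The TNF libraries fell between the day 0 replicates in both genotypes, so the groups overlapped. Within replicate 1 the TNF library was higher than the day 0 library by 1.76 on the log2 scale in the wild type and by 0.26 in the knockout, and within replicate 2 the difference was -0.88 and -2.88. The fitted difference was 0.44 ± 1.35 in the wild type (limma adjusted p = 0.990, and 0.766 with the block) and -1.31 ± 1.35 in the knockout (limma adjusted p = 0.702, and 0.277 with the block). The replicates thus differed in sign in the wild type and in the knockout.

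**Figure D2:**
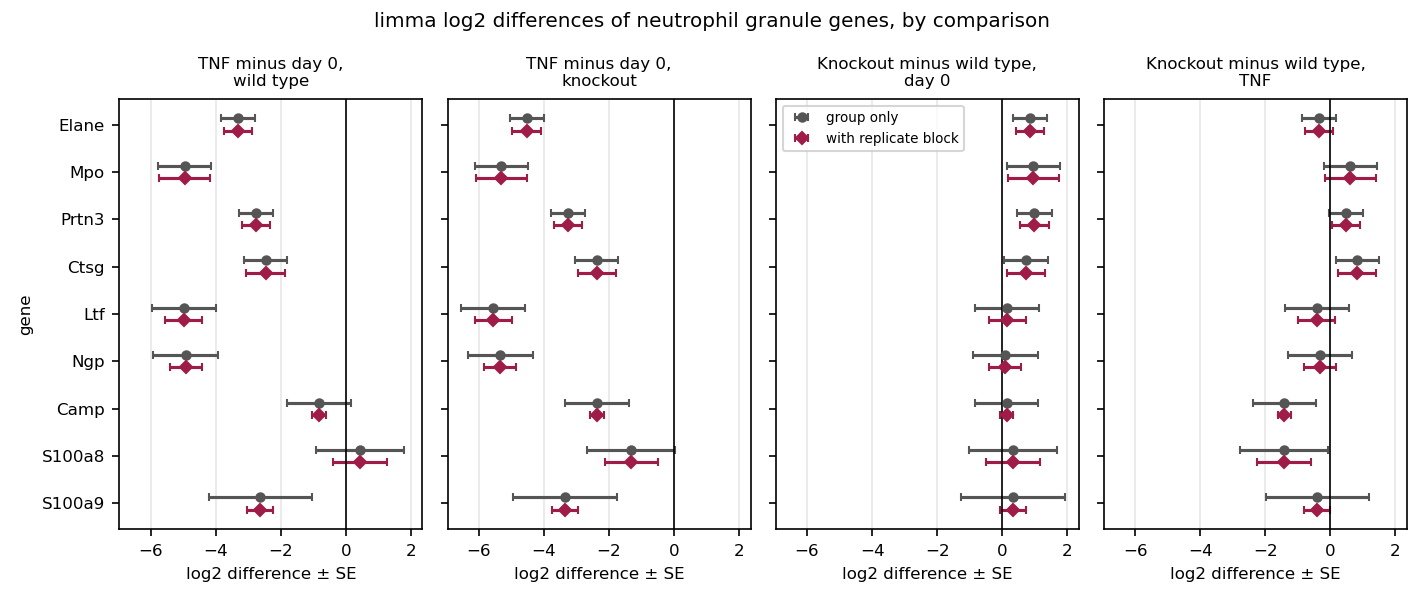
Log2 difference of each gene with its standard error in 4 comparisons (the TNF and day 0 libraries of each genotype, and the genotypes at each time), in grey from limma with group only and in red with the replicate block. Both colours share the same centre, and the red bars are shorter, most of all for Camp (0.98 without and 0.21 with the block) and S100a9 (1.59 and 0.40).

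The 2 replicates differed at day 0 in a way that followed the role of the genes, and nearly alike in the 2 genotypes. Replicate 2 had 10.9 and 10.6 times the S100a8 level of replicate 1 in the wild type and the knockout, and 9.65 and 9.63 times the S100a9 level. The ratio was 5.72 and 4.76 for Ltf, 5.12 and 4.497 for Ngp and 3.47 and 3.87 for Camp. Among the primary granule genes it was 2.04 and 2.65 for Mpo, 1.66 and 2.33 for Elane, 2.36 and 3.61 for Ctsg and 0.877 and 1.43 for Prtn3. Over all genes tested the median log2 difference between replicates 2 and 1 at day 0 was -0.05 in the wild type and -0.10 in the knockout. With TNF the ratio was 8.92 and 3.35 for S100a9 and 3.37 and 3.36 for Camp. The primary granule genes rested on 0 to 23 reads per TNF library, and their log2 differences between replicates ran from -0.87 to -0.33 in the wild type and from -1.94 to -0.31 in the knockout, where the medians of all genes tested were -0.27 and -0.16. The ratios compare 1 library with 1 library and have no test.

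**Figure D3:**
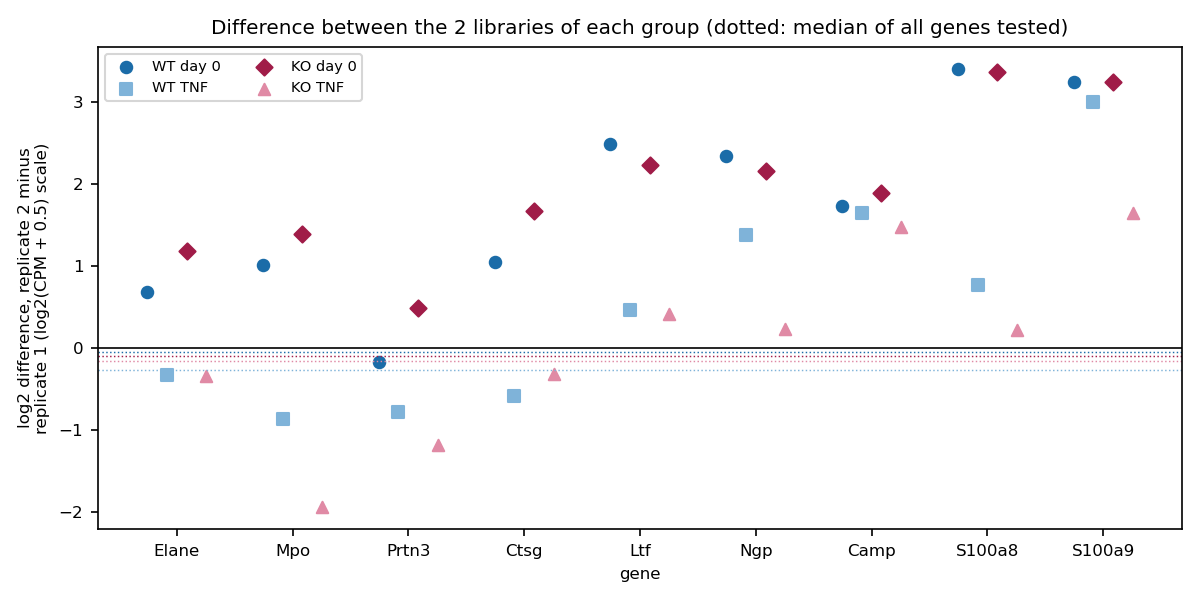
Replicate 2 minus replicate 1 on the log2(CPM + 0.5) scale for each gene in the 4 groups, with a dotted line at the median of all genes tested. At day 0 the points of both genotypes are high for S100a8 and S100a9 and lower for the primary granule genes, and with TNF the primary granule genes lie below 0.

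Ratios of reads between genes of the same class were taken within each library, for pairs chosen after their values were seen. S100a8 had 0.574 to 0.650 reads for each S100a9 read in the 4 day 0 libraries, and with TNF it had 12.5 and 2.40 in the wild type and 4.49 and 1.57 in the knockout. Camp had 0.122 to 0.180 reads for each Ngp read at day 0 and 0.750 to 3.08 with TNF. Ltf and Ngp stayed close to each other, at 0.536 to 0.605 Ltf reads for each Ngp read at day 0 and 0.339 to 0.672 with TNF. Other pairs varied more at day 0, where Prtn3 had 0.119 to 0.277 reads for each Mpo read and Camp 0.204 to 0.336 for each Ltf read, and Elane had 0.256 to 0.320 for each Mpo read. With TNF, Camp had 2.14 to 9.08 reads for each Ltf read. So the S100a8 and Camp shares were higher in each TNF library than in any day 0 library, and the Ltf share was not.

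**Figure D4:**
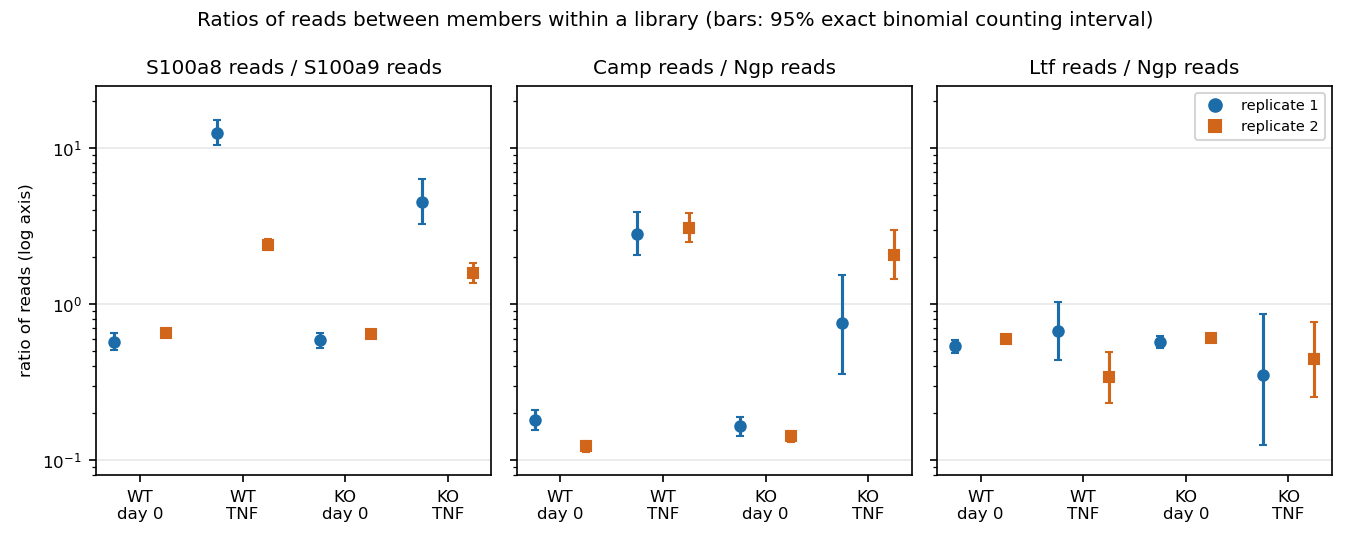
Ratio of reads per library on a log axis for S100a8 to S100a9, Camp to Ngp and Ltf to Ngp, with 95% exact binomial intervals that cover counting error only. The day 0 libraries lie close together in each panel, and the TNF libraries are higher in the panels of S100a8 and Camp.

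Levels of different genes were compared as CPM per kb of exon. By group mean at day 0 the order was the same in the 2 genotypes, from S100a9 over S100a8, Ngp, Camp, Ltf, Mpo, Elane and Ctsg to Prtn3, with means from 246 to 2.71 CPM per kb in the wild type and from 311 to 5.74 in the knockout. S100a9 was at the top in each of the 4 day 0 libraries. The order of S100a8 and Ngp, Camp and Ltf, Ltf and Mpo, Mpo and Elane, and Ctsg and Prtn3 changed between day 0 libraries, so these neighbours did not differ beyond the spread. S100a9 stayed above S100a8, Ngp above Camp and Elane above Ctsg in each of the 4. With TNF the first places by group mean went to S100a8 (93.8 CPM per kb in the wild type and 33.5 in the knockout), S100a9 (36.5 and 19.9) and Camp (13.2 and 4.38), and Ngp (2.71 and 1.84) came next.

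Between the genotypes at day 0 limma called 0 of 9 members, with 0 of 9 at an unadjusted p under 0.05, and edgeR and DESeq2 called 0 of 9 as well, where 0% of all genes tested were called by limma. With the block it was also 0 of 9, where 0.0082% of all genes tested were called. The primary granule genes had the larger differences, with log2 differences (knockout minus wild type) of 0.86 for Elane, 0.96 for Mpo, 0.99 for Prtn3 and 0.73 for Ctsg. They were higher in the knockout in both replicates, by 0.61 and 1.11 for Elane, 0.77 and 1.15 for Mpo, 0.66 and 1.32 for Prtn3 and 0.41 and 1.04 for Ctsg. For Elane the 95% interval of the log2 difference without the block ran from -0.38 to 2.09, which holds both 0 and values above the one observed. Prtn3 was the 1 member whose groups did not overlap (higher in the knockout), as did not those of 9.86% of all genes tested in that direction. The secondary granule genes were at 0.15 (Ltf), 0.10 (Ngp) and 0.13 (Camp), and S100a8 and S100a9 at 0.33 and 0.34. For Camp the 95% interval with the block was -0.37 to 0.64. The Elane and Camp intervals come from different fits, so their widths cannot be compared.

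After TNF limma called 0 of 9 members between the genotypes, with 0 of 9 at an unadjusted p under 0.05, and edgeR and DESeq2 called 0 of 9 without the block, where 0.0082% of all genes tested were called by limma. With the block 1 of 9, Camp, was lower in the knockout, where 3.75% of all genes tested were called lower. Its log2 difference was -1.41 (standard error 0.98 and limma adjusted p = 0.745 without the block, 0.21 and 0.0214 with it), and within the replicates it was -1.33 and -1.501. With the block the call was lost without wild type TNF replicate 1 (limma adjusted p = 0.0602), wild type TNF replicate 2 (0.166) or knockout TNF replicate 2 (0.137). S100a8 had a log2 difference of -1.42 ± 1.35 (limma adjusted p = 0.882, and 0.318 with the block), and both knockout libraries were below both wild type libraries. The groups of Elane did not overlap in the same direction, and those of Ctsg did not overlap in the other, where 16.1% and 18.8% of all genes tested did not overlap with the knockout lower and higher. Elane, Mpo, Prtn3 and Ctsg rested on 3 to 26 reads per group here. From summed reads, Ctsg was 3.65-fold in the knockout over the wild type (95% counting interval 1.52 to 9.38, counting error only), while its test over libraries did not pass (limma adjusted p = 0.821).

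The difference of the TNF responses between the genotypes was called for 0 of 9 members by limma, with 0 of 9 at an unadjusted p under 0.05 without the block and 1 of 9 with it, and for 0 of 9 by edgeR and DESeq2, where 0% of all genes tested were called by limma. For Camp it was -1.55 ± 1.38 (limma adjusted p = 0.9997, and 0.109 with the block). A call in 1 genotype and not in the other, as for Mpo, Prtn3, Ltf and Ngp without the block or Camp with it, is therefore not shown to be a difference between the genotypes.

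Among 20 other genes of granules and granulocyte precursors the changes went both ways. In the wild type 0 were called lower and 2 higher, Mmp9 and Hp, and with the block 5 lower (Chil3, Fcnb, Lcn2, Ltb4r1 and Pglyrp1) and 5 higher. Of all genes tested, 0.812% were called higher in the wild type and 3.09% in the knockout, and 5.54% and 12.2% with the block. Called lower were 0.369% and 2.01%, and 4.71% and 13.7% with the block. Their median log2 difference was -1.12 in the wild type and -1.73 in the knockout. Mmp9, the gelatinase of tertiary granules, which osteoclasts also make, rose by 8.12 ± 0.33 on the log2 scale in the wild type (limma adjusted p = 0.00128) and by 9.42 ± 0.33 in the knockout (limma adjusted p = 0.000322). Hp, for haptoglobin, rose by 6.38 ± 0.72 in the wild type (limma adjusted p = 0.0211). In the knockout it was 2.81 ± 0.72 (limma adjusted p = 0.0797, and 0.0147 with the block). Knockout counts were 0 lower and 1 higher, and with the block 10 lower and 4 higher. Ms4a3, a gene of granulocyte and monocyte progenitors, was at -2.88 ± 0.997 in the knockout (limma adjusted p = 0.174, and 0.0252 with the block).

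Markers of other cells moved beside the granule genes. Of 16 markers of mature neutrophils 10 were tested, and Ly6g was not analysed here. None of the 10 was called by limma in the wild type or in the knockout. With the block 3 were higher in the wild type (Fpr1, Fpr2 and Trem3), and 2 lower and 2 higher in the knockout. The 2 lower were Retnlg at -2.22 and Cxcr4 at -1.38 (limma with the block, adjusted p = 0.0421 and 0.00481), and the 2 higher were Fpr1 and Fpr2. The median log2 difference of the 10 markers was -0.15 in the wild type and -0.59 in the knockout. The block fit called 4.71% of all genes tested lower and 5.54% higher in the wild type. In the knockout these shares were 13.7% and 12.2%. Cxcr2, the chemokine receptor of mature neutrophils, was at 0.874 to 6.71 CPM at day 0 and 0.211 to 1.01 CPM with TNF. Csf3r, the G-CSF receptor, was at 9.79 to 61.7 CPM at day 0 and 7.001 to 65.9 CPM with TNF, and these ranges overlapped. From summed reads its TNF level was 2.11-fold the day 0 level in the wild type (95% counting interval 1.96 to 2.27). In the knockout it was 0.570-fold (0.516 to 0.628). These intervals cover counting error only, and Csf3r was called in neither genotype, with or without the block. Levels of the formyl peptide receptors were higher with TNF. Fpr1 was at 0.583 and 4.41 CPM in the wild type at day 0 and 175 and 358 with TNF. Its log2 difference was 6.76 ± 1.31 (limma adjusted p = 0.0791, and 0.0115 with the block). Fpr2 was at 6.43 ± 1.44 (limma adjusted p = 0.111, and 0.00144 with the block), and in the knockout the differences were 3.601 for Fpr1 and 3.62 for Fpr2 (limma with the block, adjusted p = 0.0411 and 0.00234). Of 13 granulocyte transcription factors limma called 0 in either genotype without the block. With it Myb was lower and Cebpb and Egr2 were higher in the wild type. In the knockout Cebpa, Irf8, Myb and Runx1 were lower and Egr2 was higher. Cebpa was at 153 to 318 CPM at day 0 and 32.0 to 127 with TNF. Cebpe was at 1.85 to 4.08 and 0.211 to 7.10, and Gfi1 at 0.802 to 1.87 and 0.196 to 1.74. From summed reads, Cebpe with TNF was 1.55-fold its day 0 level in the wild type (95% counting interval 1.27 to 1.90). In the knockout Cebpe was 0.323-fold (0.204 to 0.493). Here too the intervals cover counting error only, and limma called Cebpe in neither genotype, with or without the block.

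Of 12 progenitor markers 10 were tested, with 0 called lower in the wild type (3 with the block) and 2 in the knockout (6 with the block). Called higher were 0 and 0 (0 and 1 with the block). The shares of all genes tested that were called lower were 0.369% and 2.01%, and 4.71% and 13.7% with the block. Cd34 was at 3.39 and 13.4 CPM in the wild type at day 0 and 0.224 and 0.806 with TNF, and at 10.2 and 37.4 CPM in the knockout at day 0 and 0.710 and 0.527 with TNF. Its log2 difference was -2.92 ± 0.82 in the wild type (limma adjusted p = 0.193, and 0.0220 with the block) and -4.17 ± 0.82 in the knockout (limma adjusted p = 0.0400). Kit was at 1.18 to 3.82 CPM at day 0 and 0.504 to 4.59 with TNF. Of 8 monocyte markers 1 was called lower in each genotype, Ccr2, the receptor for CCL2, at -4.32 ± 0.41 in the wild type (limma adjusted p = 0.0151) and -4.86 ± 0.41 in the knockout (limma adjusted p = 0.00513). With the block 2 monocyte markers were called lower in the wild type and 5 in the knockout. Ly6c2 was at 4.05 to 49.9 CPM at day 0 and 2.22 to 25.5 with TNF. From summed reads, its TNF level was 0.955-fold the day 0 level in the wild type and 0.307-fold in the knockout. With the block Ly6c2 was called lower in the knockout only.

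The summed level of 12 progenitor markers was 1059 to 1571 CPM at day 0 and 95.2 to 313 with TNF, and that of 8 monocyte markers 603 to 988 and 76.2 to 444. Cd34 and Kit made up only a small part of the progenitor sum, Cd34 with 3.39 to 37.4 CPM at day 0. The rest came from other markers of that list. One of them, Cd93, was at -2.72 ± 0.52 in the wild type (limma adjusted p = 0.0753, and 0.00811 with the block). In the knockout Cd93 was at -3.34 ± 0.52 (limma adjusted p = 0.0215). Of the 10 progenitor markers tested, 9 had negative differences and 1 a positive one in each genotype. Of the 12 macrophage markers 1 was called lower in the wild type, the mannose receptor Mrc1. In the knockout 5 were called lower, C1qa, C1qb, C1qc, Fcgr1 and Mrc1. With the block the counts were 5 and 7, and none was called higher. The shares of all genes tested that were called lower were 0.369% and 2.01%, and 4.71% and 13.7% with the block. Mrc1 fell by 3.74 on the log2 scale in the wild type (limma adjusted p = 0.01001) and fell by 3.603 in the knockout (limma adjusted p = 0.00457), and Fcgr1 fell by 5.49 in the knockout (limma adjusted p = 0.0135). The macrophage markers Csf1r (1785 to 3028 CPM at day 0, 2078 to 3266 with TNF) and Adgre1 (721 to 2939 and 397 to 1840) were present in every library. From summed reads, the TNF level of Adgre1 was 0.845-fold its day 0 level in the wild type and 0.228-fold in the knockout. With the block Adgre1 was called lower in the knockout only. The summed level of 12 macrophage markers was 10518 to 14308 CPM at day 0 and 5712 to 8719 with TNF. That of 10 osteoclast markers was 144 to 248 CPM at day 0. With TNF it was 6579 and 4965 CPM in the wild type and 18804 and 45864 in the knockout. Mmp9, also listed with the granule genes above, made up 4718 and 2777 CPM of the wild type TNF sums. The part of any of these cell types in the differences of the granule genes was not tested.

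By their profile over the 8 libraries, the genes most like each role group were found as the smallest root mean square distance between centred log2(CPM + 0.5) profiles, among 10455 genes with a mean of at least 2 CPM. Nearest to the mean profile of the primary granule genes were Rhoh (0.28), Arhgap19 (0.42), Arhgap15 (0.47), Pparg (0.50) and Trf (0.51), with Elane itself at 0.35 and Mpo at 0.81. For the secondary granule genes the nearest 4 were Abca9 (0.48), Fcgr1 (0.61), Rnf144b (0.63) and Cd34 (0.67), with Ngp at 0.60 and Camp at 1.25. Alox12 (0.41), Sdpr (0.44), Rab27b (0.46), Tnfsf10 (0.47) and Tubb1 (0.48) were nearest to the mean profile of the calprotectin genes, which themselves lay at 0.74. Each member is part of the mean it is measured to, so its distance is not like that of an outside gene. The 2 calprotectin genes lie equally far from their mean by construction. The calprotectin neighbours were low in both replicate 1 libraries at day 0, at 0.620 to 1.89 CPM, and at 7.01 to 12.0 CPM in replicate 2.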

How the data were processed

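RNA of 8 libraries in 4 groups of 2 was measured by poly-A RNA sequencing. The submitters' processing notes name genome build mm10 and the tools fastp, HISAT2, HTSeq and edgeR. Of the versions, settings and annotation behind them, nothing is given in the sources used here. CPM values of 24421 genes were deposited by the authors in 1 table, scaled to the same sum in each library. Divided by the CPM of 1 read, 100% of values were whole numbers within 0.01, so reads were recovered for counting intervals and for edgeR and DESeq2. Of the symbols, 27 had been turned into dates, none of them a member.

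limma (lmFit and eBayes with trend, 2-sided) was run on log2(CPM + 0.5), which understates the change of low genes, over 12194 genes that reached 1 CPM in 2 or more libraries. The spread was estimated from all 8 libraries together (4 residual degrees of freedom, 3 with the block), in 5 contrasts. The depth of 9855859 to 35653203 reads makes 1 read worth 0.0280 to 0.101 CPM. The replicate numbers were taken to pair the libraries: the series states 2 independent experiments, and the differences between replicates correlated across genes in each of 6 pairs of groups (Pearson r 0.577 to 0.805; genes are not independent replicates). That a number marks 1 experiment is not stated in the labels.

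The members, lists, tests and alternatives were chosen with earlier results of these data known. Named genes were the 9 members, up to 4 called genes of each other list with the largest differences, 13 defining markers and the 5 genes nearest to each role group; of those named by the rule some are given as counts only and some are not reported here. Promoter windows came from RefSeq (GRCm38.p6, 9 of 9 matched by symbol) and positions from GENCODE M21. Alternatives were other pseudocounts, filters and scalings, edgeR, DESeq2, the block, 4 libraries only and leaving out each library. No pair of replicates was alike within sampling noise. Tests were also run on simulated data with the same replicate shift in every group and changes only in wild type TNF. No error rate is taken from them. R 4.3.3 was used with limma 3.58.1, DESeq2 1.42.0 and edgeR 4.0.16.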

Additional observations from a re-analysis of the deposited data

How the results depend on the processing

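The counts of members called depended most on the replicate block and on single libraries. For TNF against day 0 in the wild type, where 1 of 9 was called, the count was 0 with no filter on low values, 0 with median-ratio scaling, 0 with edgeR, 0 with only the 4 libraries of the comparison, 2 with at least 1 CPM in 4 libraries, 6 with DESeq2, 7 with limma and the replicate block, 7 with edgeR and the replicate block, and 6 with median-ratio scaling and the replicate block, the last chosen after seeing the data. Leaving out 1 library gave 0 to 0, and with the replicate block 1 to 7, which fell to 1 when wild type TNF replicate 2 was left out, to 3 for wild type TNF replicate 1 and to 2 for wild type day 0 replicate 2. In the knockout, where 5 were called, it was 2 with edgeR, 0 with only the 4 libraries of the comparison, 7 with DESeq2, 7 with edgeR and the replicate block, 8 with limma and the replicate block and 8 with median-ratio scaling and the replicate block. Leaving out 1 library gave 0 to 4 there, with 0 without knockout day 0 replicate 2 or knockout TNF replicate 2, 1 without knockout day 0 replicate 1 and 3 without knockout TNF replicate 1, and 7 to 8 with the replicate block. With a pseudocount of 1 the 1 wild type call was Mpo in place of Elane. Knockout against wild type after TNF, with 0 called, had 1 with limma and the replicate block, 1 with edgeR and the replicate block, 1 with median-ratio scaling and the replicate block, and 0 to 2 when 1 library was left out with it. The second was S100a9 without knockout TNF replicate 1 (-1.16, limma adjusted p = 0.0334). At day 0 and for the difference of the TNF responses the count was 0 in each alternative run. The cause of these changes was not tested. No member called without the block changed sign in any alternative. The S100a9 difference between the genotypes after TNF ran from -1.16 to 0.36 with 1 library left out and the replicate block, and from -1.90 to 1.10 without it. Median-ratio scaling moved the median of all genes by 0.12 (log2) for TNF against day 0 in the wild type, and by less than 0.1 in the other comparisons. Depth limited the primary granule genes with TNF, at 0 to 23 reads per library.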

Other observations

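Markers of other blood lineages were also present at low levels. The summed level of 12 eosinophil, basophil and mast cell markers was 6.78 to 54.5 CPM at day 0, 8.39 and 13.5 in the wild type with TNF and 93.0 and 85.4 in the knockout with TNF. Ccr3, the eotaxin receptor, made up 89.6 and 76.5 CPM of the last pair. Of these markers 5 were tested, and in the knockout limma called 1 of them, Tpsab1, a mast cell tryptase, higher with TNF. With the block 2 were higher, Tpsab1 and Ccr3, and 2 lower, Prg2 and Siglecf. In the knockout 3.09% of all genes tested were called higher without the block. With it 12.2% were called higher and 13.7% lower. Prg2, the eosinophil major basic protein, was at 1.46 to 16.5 CPM at day 0 and 0.421 to 4.32 with TNF. Epx, eosinophil peroxidase, did not reach 1 CPM in 2 libraries and was not tested. The summed level of 10 B lymphoid markers was 5.68 to 10.9 CPM at day 0 and 1.09 to 7.55 with TNF. Of 12 erythroid and megakaryocyte markers 5 were at 0 in all 8 libraries. Car2, a carbonic anhydrase that osteoclasts also express, rose by 4.41 ± 0.51 on the log2 scale in the wild type (limma adjusted p = 0.0220) and by 7.10 ± 0.51 in the knockout (limma adjusted p = 0.00367). Pf4, Ppbp and Itga2b, platelet lineage genes, were lower with TNF in the knockout with the block only.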
